A study of Mus musculus with 8 samples.

Results

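Synj1 and Itsn1 are endocytosis genes that lie in the duplicated region of Dp1Tyb mice, and they were examined here with 8 partners outside it: the paralogues Synj2 and Itsn2, and Rab5a, Rab5b, Picalm, Dnm2, Vps35 and Vps26a. The 10 genes were chosen by name and matched to the count table through Ensembl IDs on GRCm38. All 10 were found among the 19493 endogenous genes of the table, and all 10 were among the 16470 genes tested after removal of genes with low counts. Gene expression was measured by RNAseq of mouse embryonic fibroblasts (MEFs), primary cultures derived from E14.5 embryos (strain background C57BL/6J.129P2 in the labels, from mice backcrossed to C57BL/6JNimr by the methods), with 4 wild-type (WT) and 4 Dp1Tyb libraries. Dp1Tyb cells carry the duplication Dp(16Lipi-Zbtb21)1TybEmcf, which gives them 3 copies in place of 2 of a 22.4 Mb stretch of chromosome 16 (chr16:75540514-97962622, GRCm38) holding 112 of the tested genes. ERCC RNA spike-ins were mixed with counted cells ahead of the extraction, so that total mRNA as well as its composition could be compared. The embryos had been decapitated and eviscerated, the cells were dissociated with trypsin when the cultures were made, at passaging and again just before RNA extraction but received no other treatment in the labels, and the study's methods describe MEFs from littermate embryos without stating whether this holds for the spike-in libraries. The labels do not say which embryo each library came from. The p-values therefore measure the spread between these 8 cultures.

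In clathrin-mediated endocytosis, adaptors gather cargo and clathrin on a patch of membrane rich in a phosphorylated inositol lipid, dynamin cuts the coated bud free, and the coat then comes off. Synaptojanins remove phosphates from that lipid so that the coat can be shed, while intersectins are multidomain scaffolds that bind dynamin, synaptojanin and actin regulators at the bud. The uncoated vesicles fuse with early endosomes under the control of Rab5, and the retromer, whose core holds Vps35 and Vps26, returns selected cargo from there. In neurons the same steps recycle synaptic vesicles, and in fibroblasts they take up nutrients and receptors.

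Synj1 (ENSMUSG00000022973) lies at chr16:90936092-91011308 on the minus strand and Itsn1 (ENSMUSG00000022957) at chr16:91729281-91920597 on the plus strand, both on GRCm38, and they point away from each other with their annotated transcription starts 717973 bp apart. The promoters of both genes were read as the 250 bases before the RefSeq start on GRCm38.p6. These are chr16:91011309-91011558 for Synj1 (minus strand) and chr16:91729121-91729370 for Itsn1 (plus strand). The bases come from the reference genome and were not compared between genotypes. They are written 5′ to 3′, for Itsn1 only as far as the start of the GENCODE gene (chr16:91729121-91729280), 90 bases short of the RefSeq start. Capitals mark a GC box (GGGCGG, or CCGCCC on the other strand) or a CCAAT box (CCAAT, or ATTGG on the other strand).
Synj1: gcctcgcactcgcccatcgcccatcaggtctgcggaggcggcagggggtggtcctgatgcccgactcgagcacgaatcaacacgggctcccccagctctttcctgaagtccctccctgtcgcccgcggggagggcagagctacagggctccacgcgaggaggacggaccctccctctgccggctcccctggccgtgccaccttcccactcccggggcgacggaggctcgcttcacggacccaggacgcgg
Itsn1: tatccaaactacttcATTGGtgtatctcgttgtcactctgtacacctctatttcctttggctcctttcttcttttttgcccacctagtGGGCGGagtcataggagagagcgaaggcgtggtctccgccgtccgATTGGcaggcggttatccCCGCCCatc
The 2 promoters differ in these letters. Over its 250 bases that of Itsn1 held 5 GC boxes and 2 CCAAT boxes, of which 2 and 2 are in the stretch shown, and that of Synj1 held 0 of either, where 32.9% of 27025 RefSeq promoters of the same length held a GC box and 34.5% a CCAAT box. Neither held the TATA box letters TATAAA on either strand, which were found in 13% of promoters. Both were rich in G and C, with 71.2% in Synj1 and 59.2% in Itsn1 against a median of 52%, and held 24 and 17 CG dinucleotides against a median of 6. RefSeq lists a second start for Synj1, 213 bases from the first. Such matches describe the sequence and were not tested as binding sites.

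The libraries held 17698900 to 26471758 counts, and the 10 genes had between 681 and 11566 counts in each library, so that counting error alone, which takes no account of duplicate reads, was at most 3.83% of any value. Endogenous RNA per spike-in, relative to the geometric mean of all libraries, was 0.713 to 1.19 in WT and 0.688 to 1.31 in Dp1Tyb MEFs (two-sided exact permutation test, p = 0.771). Values are given below as CPM, counts scaled to library size, under relative scaling, in which endogenous genes set the library size, and under spike-in scaling, in which the ERCC RNAs do. All 10 fibroblast markers were present, with a summed level of 2719 to 3610 RPKM (counts scaled to exon length and library total) in WT and 2963 to 3607 RPKM in Dp1Tyb MEFs. Levels of 5 of 5 macrophage and leukocyte markers were lower on average in Dp1Tyb MEFs, with a summed level of 11.7 to 15.8 RPKM in WT and 6.60 to 8.76 RPKM in Dp1Tyb libraries (exact permutation test, two-sided, p = 0.0286, the lowest that 4 against 4 allows). Summed levels of fibroblast, endothelial, epithelial, neuronal and skeletal muscle markers overlapped between the genotypes (exact permutation test, two-sided, p = 0.543 to 0.971). The p-values of the marker sets, that of the macrophage and leukocyte markers included, were not adjusted for the number of sets. None of the 5 macrophage markers was at 0 in any library, and the part of these cells in the results below was not tested. In such bulk samples fewer cells of a type and less RNA per cell cannot be told apart.

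To ask whether an extra copy was accompanied by a higher level of the mRNA, Synj1 and Itsn1 were compared first. Both were higher in Dp1Tyb MEFs under relative scaling, Synj1 at 1.41 times and Itsn1 at 1.51 times the WT level, and the lowest Dp1Tyb value exceeded the highest WT value for each, but neither passed the edgeR test after adjustment over all genes. The macrophage markers given above were lower in the same Dp1Tyb libraries. None of the 8 genes outside the duplication separated the genotypes, and their fold changes lay between 0.98 and 1.10.

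Synj1 encodes synaptojanin 1, the lipid phosphatase best known from synapses. Its level under relative scaling was 54.9, 49.3, 53.5 and 55.9 CPM in WT libraries 1 to 4 and 83.2, 66.5, 75.0 and 76.6 CPM in Dp1Tyb libraries 1 to 4. All Dp1Tyb values were thus above all WT values, with Dp1Tyb library 2 the lowest of its group and library 1 the highest. The mean was 53.4 ± 2.92 CPM in WT and 75.3 ± 6.89 CPM in Dp1Tyb MEFs (SD, n = 4 each), a log2 fold change of 0.50 (SE 0.10, edgeR, adjusted p = 0.326), and the gene had rank 28 of all tested genes by p. The 95% interval of the fold change was 1.21 to 1.65, and the adjusted p ranged from 0.0047 with DESeq2, which called the gene, to 1.00 over the alternatives tried. Under spike-in scaling the level was 65.1, 43.5, 38.2 and 65.3 CPM in WT and 100.2, 45.7, 78.9 and 100.6 CPM in Dp1Tyb libraries 1 to 4. Here the groups overlapped, since Dp1Tyb library 2 fell among the WT libraries, and the log2 fold change of 0.62 (SE 0.32, edgeR, adjusted p = 1.00) had an interval that included 0.

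Itsn1 encodes intersectin 1, the scaffold whose long form is enriched in neurons and whose short form is widely expressed. Its relative level was 218.7, 187.4, 196.1 and 184.4 CPM in WT libraries 1 to 4 and 339.05, 257.6, 308.5 and 286.1 CPM in Dp1Tyb libraries 1 to 4. As for Synj1, the groups did not overlap, and Dp1Tyb library 2 was again the lowest and library 1 the highest of its group. Averages of 196.6 ± 15.5 CPM in WT and 297.8 ± 34.5 CPM in Dp1Tyb MEFs (SD, n = 4 each) gave a log2 fold change of 0.60 (SE 0.11, edgeR, adjusted p = 0.228) and rank 23 by p. The fold change had a 95% interval of 1.27 to 1.80, and the adjusted p ranged from 0.000667 with DESeq2, which again called the gene, to 0.989. Under spike-in scaling the level was 259.4, 165.4, 139.8 and 215.6 CPM in WT and 408.4, 177.1, 324.7 and 376 CPM in Dp1Tyb libraries 1 to 4. The one Dp1Tyb library within the WT range was library 2, the library with the least endogenous RNA per spike-in, and the log2 fold change was 0.72 (SE 0.32, edgeR, adjusted p = 1.00).

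**Figure D1:**
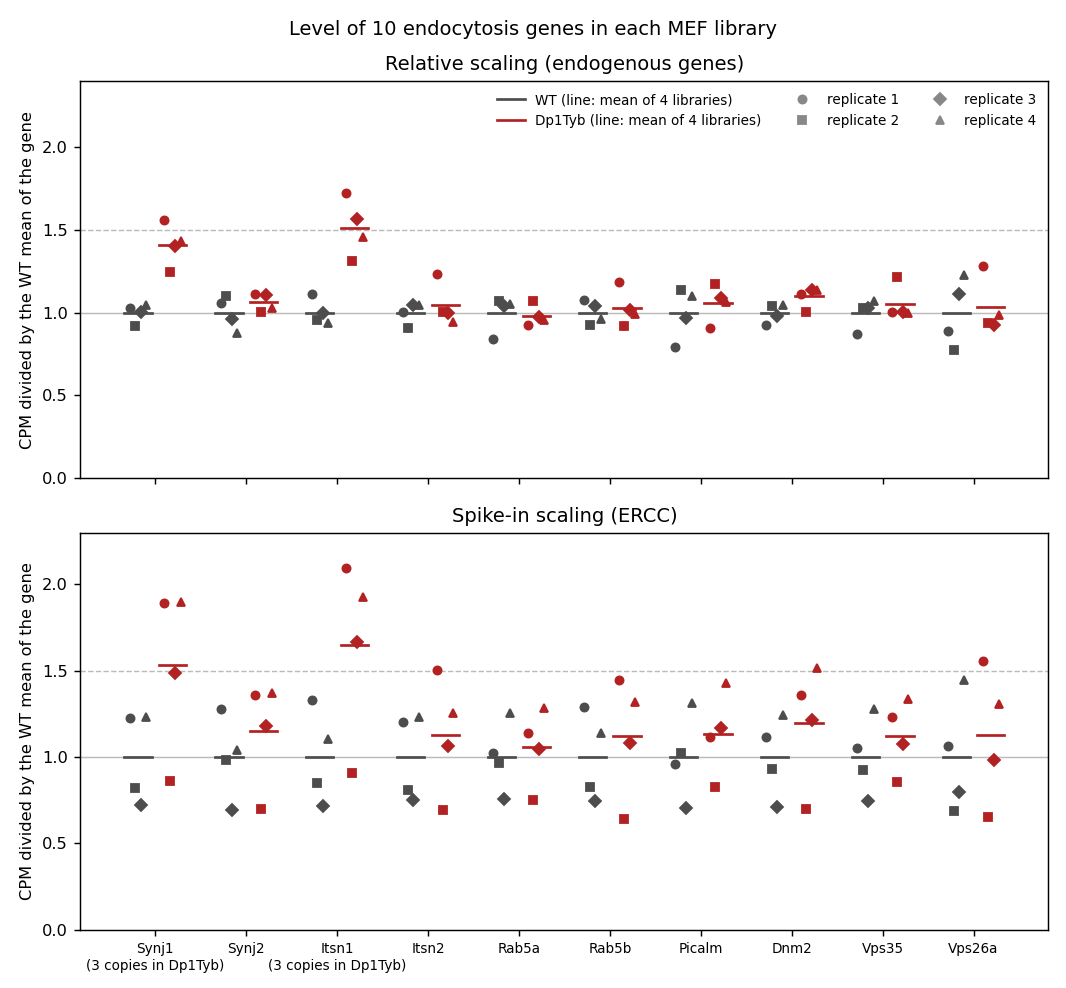
Level of each of the 10 genes in each library, as CPM divided by the mean of the 4 WT libraries, under relative scaling (top) and spike-in scaling (bottom). Symbols are libraries by replicate number, lines are group means (n = 4) and the dashed line marks a ratio of 1.5. Only Synj1 and Itsn1 separate the genotypes in the top panel, at 1.41 and 1.51 times the WT mean, and no gene does so in the bottom panel.

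These counts can be read against all 16470 tested genes. Under relative scaling edgeR called 0 of the 10 genes at an adjusted p under 0.05, where 0.0182% of all genes were called, while DESeq2 called Synj1 and Itsn1, where 0.328% of all genes were called. At an unadjusted p under 0.05, edgeR gave 2 of the 10 genes, both duplicated, against 4.27% of all genes. The same 2 genes had all Dp1Tyb libraries above all WT libraries, against 1.64% of all genes. Under spike-in scaling 0 of the 10 genes passed at an adjusted p under 0.05 (0.0121% of all genes), with either tool, and 1 of 10, Itsn1, had an unadjusted p under 0.05 (1.17% of all genes). No member separated the genotypes in that direction under spike-in scaling (0.285% of all genes). The spread between libraries was larger under spike-in scaling, with a biological coefficient of variation of 0.351 against 0.232.

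Whether the duplicated genes followed the ratio of 3 copies to 2 was tested against a fold change of 1.5. Under relative scaling Synj1 departed from that ratio by -0.09 on the log2 scale (95% interval -0.31 to 0.13, edgeR, adjusted p over the region 0.737) and Itsn1 by 0.01 (95% interval -0.24 to 0.26, edgeR, adjusted p over the region 0.963). Neither departure passed the test, and the intervals leave room for Synj1 between 1.21 and 1.65 times and Itsn1 between 1.27 and 1.80 times the WT level. Among the 112 tested genes of the duplicated region, whose median log2 fold change was 0.54, Itsn1 was at rank 49 and Synj1 at rank 59 from the highest fold change. Of these 112 genes 47, Synj1 and Itsn1 among them, separated the genotypes (42.0%), and 60 had an unadjusted p under 0.05 (53.6%). DESeq2 under relative scaling called 37 of the 112 at an adjusted p under 0.05 (33.0%), again with Synj1 and Itsn1 among them.

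The 3 tested genes nearest to each of Synj1 and Itsn1 on either side by start coordinate, all within the duplication, were compared in the same fit under relative scaling. Of the 12 neighbours, 11 were higher in Dp1Tyb MEFs, 5 had all Dp1Tyb libraries above all WT libraries, and 7 had an unadjusted p under 0.05, while edgeR called 0 at an adjusted p under 0.05. Their median log2 fold change was 0.61. Beside Synj1, Urb1, a ribosome biogenesis factor, was at 1.77 times the WT level (log2 fold change 0.82, SE 0.14) and Cfap298, a gene of ciliary motility, at 1.58 times (0.66, SE 0.14). Paxbp1, on the other side, was at 1.28 times (log2 fold change 0.35, SE 0.12), with overlapping groups. Eva1c had a log2 fold change of 0.93 with an SE of 0.51, from 3.99 ± 1.85 CPM in WT and 7.53 ± 5.09 CPM in Dp1Tyb MEFs (SD, n = 4 each), and its groups overlapped.

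Beside Itsn1, Atp5o, a subunit of the mitochondrial ATP synthase, was at 1.71 times the WT level (log2 fold change 0.77, SE 0.13), and Cryzl1, a quinone reductase-like gene, at 1.87 times (0.91, SE 0.15). Mrps6, a mitochondrial ribosomal protein, was at 1.82 times (log2 fold change 0.86, SE 0.21), and Donson, a replication fork protein, at 1.48 times (0.56, SE 0.20) with overlapping groups. Slc5a3, the myo-inositol transporter, varied most of the 6 beside Itsn1, with 421 ± 151 CPM in WT and 577 ± 435 CPM in Dp1Tyb MEFs (SD, n = 4 each) and an SE of 0.47 on a log2 fold change of 0.45. Mrps6 and Slc5a3 start within the same stretch and on the same strand, so the division of reads between them is uncertain. The noncoding Gm10785 had a log2 fold change of 0.08 (SE 0.28).

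Some of these models share sequence with the 2 endocytosis genes. The antisense gene Gm15965 lies inside Synj1 over 3331 bp and had a mean of 109 counts, with 5.22 ± 0.57 CPM in WT and 5.15 ± 1.76 CPM in Dp1Tyb MEFs (SD, n = 4 each), a log2 fold change of -0.02 (SE 0.25). 4930404I05Rik, annotated as a processed transcript on the opposite strand, overlaps Synj1 by 60 bp with a log2 fold change of 0.29 (SE 0.33). For Itsn1, a model of Atp5o in the GENCODE annotation runs on the opposite strand across the whole gene, but its ID had no row among the counts. The library kit marks strand, whereas the strand setting of the counting is not given in the sources used here, so counts in these overlaps are uncertain.

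**Figure D2:**
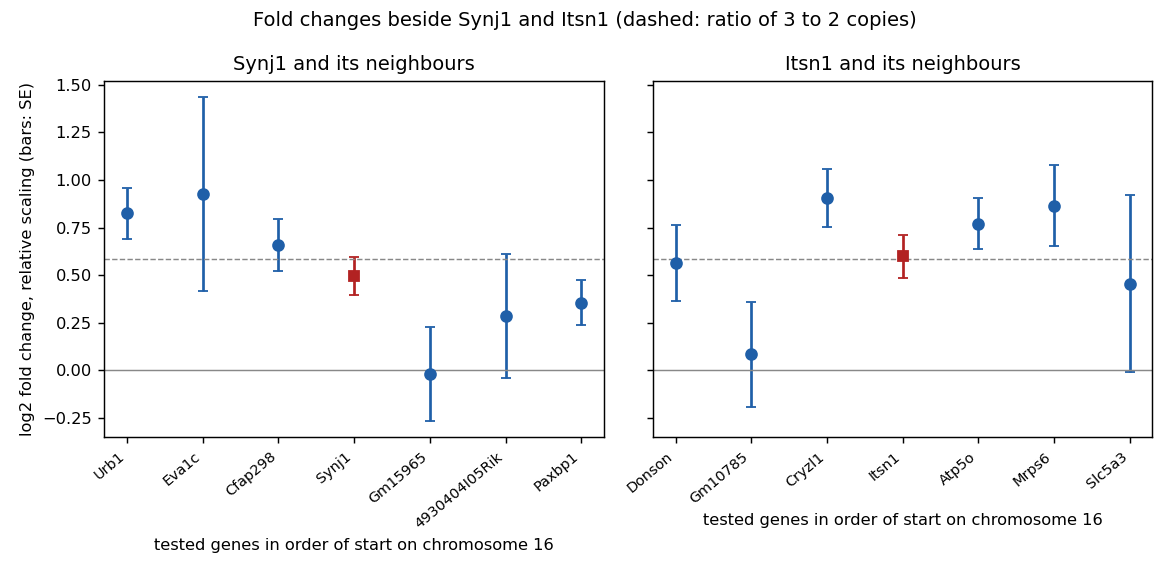
Log2 fold change (Dp1Tyb over WT, relative scaling, n = 4 each) of Synj1 and Itsn1 (red squares) and of the 3 tested genes on either side of each (blue), in order along chromosome 16, with standard errors from edgeR as bars. The dashed line marks the ratio of 3 to 2 copies. Of the 12 neighbours 11 lie above 0, and the antisense Gm15965 lies at -0.02.

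The paralogues of the duplicated genes lie on other chromosomes and are present in 2 copies in both genotypes. Synj2 (ENSMUSG00000023805, chr17:5941280-6044290, plus strand) encodes synaptojanin 2, a phosphatase of the same lipid. Its relative level was 41.5, 42.9, 37.6 and 34.4 CPM in WT libraries 1 to 4 and 43.5, 39.3, 43.2 and 40.1 CPM in Dp1Tyb libraries 1 to 4. The ranges overlapped, and the log2 fold change was 0.09 (SE 0.10, edgeR, adjusted p = 0.999). Itsn2 (ENSMUSG00000020640, chr12:4592638-4713962, plus strand) encodes the second intersectin scaffold, and had 83.8, 75.8, 87.4 and 87.2 CPM in WT against 103.1, 83.7, 83.5 and 79.1 CPM in Dp1Tyb libraries 1 to 4. Dp1Tyb library 1 was above the WT range and the other Dp1Tyb libraries were within it, with a log2 fold change of 0.06 (SE 0.11, edgeR, adjusted p = 0.999). Synj2 shares 2095 bp with Serac1 on the opposite strand, which had a mean of 208 counts, and Itsn2 shares 60549 bp with the antisense model Gm48678, which had no row among the counts.

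The balance within each paralogue pair was measured as the ratio of their counts in the same library, a value that no choice of scaling can alter. The ratio of Synj1 to Synj2 was 1.32, 1.15, 1.42 and 1.63 in WT libraries 1 to 4 and 1.91, 1.69, 1.74 and 1.91 in Dp1Tyb libraries 1 to 4. The ratio was higher in 4 of 4 Dp1Tyb libraries than in any WT library, although WT library 4 came close to Dp1Tyb library 2. Its mean log2 value was 0.45 ± 0.21 in the WT and 0.86 ± 0.09 in the Dp1Tyb libraries (SD, n = 4 each), a difference of 0.40 or 1.32-fold (exact permutation test, two-sided, p = 0.0286, and 0.0714 after Benjamini-Hochberg adjustment over 5 ratios).

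For the intersectins the ratio of Itsn1 to Itsn2 was 2.61, 2.47, 2.24 and 2.11 in WT libraries 1 to 4 and 3.29, 3.08, 3.69 and 3.62 in Dp1Tyb libraries 1 to 4. The lowest Dp1Tyb value was above the highest WT value. The mean log2 ratio was 1.23 ± 0.14 for WT and 1.77 ± 0.12 for Dp1Tyb MEFs (SD, n = 4 each), and the difference of 0.54, or 1.45-fold, had the same exact permutation p of 0.0286 and adjusted p of 0.0714. Neither adjusted value passed 0.05, and 0.0286 is the smallest p that 4 against 4 libraries allow for a single ratio.

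The ratio of the 2 duplicated genes to each other was also compared. Synj1 had 0.251, 0.263, 0.273 and 0.303 counts for each count of Itsn1 in WT libraries 1 to 4 and 0.245, 0.258, 0.243 and 0.268 in Dp1Tyb libraries 1 to 4. The groups overlapped, and the mean log2 ratio was lower in Dp1Tyb by 0.10, which did not pass the test (two-sided exact permutation test, p = 0.171, adjusted p = 0.286, n = 4 each).

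**Figure D3:**
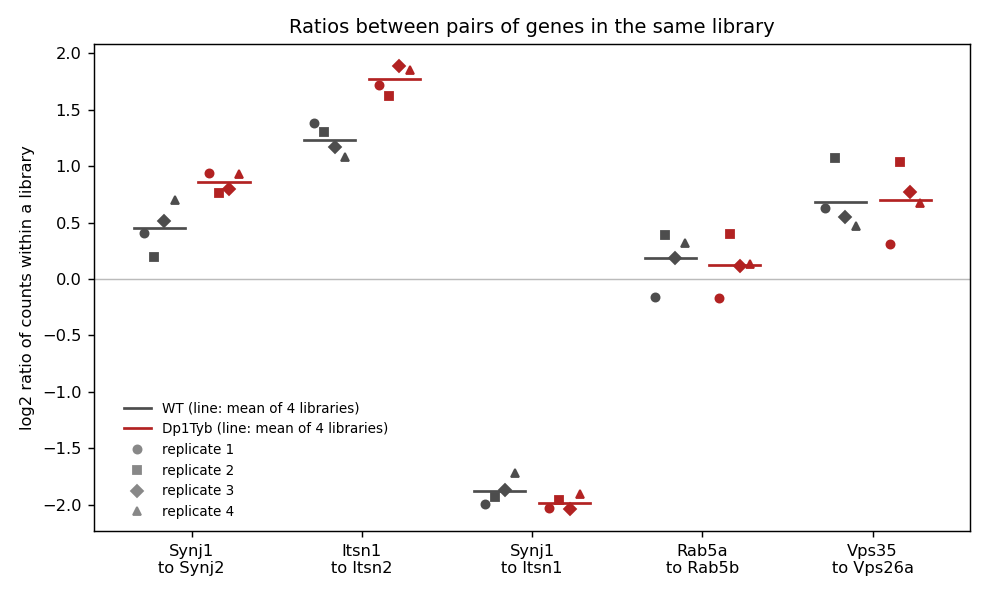
Log2 ratio of the counts of 2 genes within each library, for 5 pairs chosen with earlier results of these data known. Symbols are libraries by replicate number and lines are group means (n = 4). The ratios of Synj1 to Synj2 and of Itsn1 to Itsn2 separate the genotypes, with means of 0.45 and 0.86 and of 1.23 and 1.77, and the other 3 ratios overlap.

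Outside the synaptojanins and intersectins, the coat and fission genes were compared next. Picalm (ENSMUSG00000039361, chr7:90130213-90213465, plus strand) encodes the clathrin assembly protein CALM, which recruits clathrin to the membrane and sorts vesicle fusion proteins. It had the highest CPM of the 10 genes, with 341, 491, 417 and 475 CPM in WT and 392, 506, 469 and 460 CPM in Dp1Tyb libraries 1 to 4 under relative scaling. Library 1 was the lowest and library 2 the highest of each group, the groups overlapped, and the log2 fold change was 0.08 (SE 0.14, edgeR, adjusted p = 0.999). Dnm2 (ENSMUSG00000033335, chr9:21424908-21507759, plus strand) encodes dynamin 2, the widely expressed GTPase that cuts vesicles from the membrane. It had 110.1, 123.7, 116.7 and 124.6 CPM in WT against 132.5, 119.2, 135.3 and 135.4 CPM in Dp1Tyb libraries 1 to 4. In 3 Dp1Tyb libraries the level was above that in all WT libraries and in Dp1Tyb library 2 it was within their range, and the log2 fold change of 0.14, the largest of the 8 partner genes, did not pass the test (SE 0.09, edgeR, adjusted p = 0.999).

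The small GTPases of the early endosome followed. Rab5a (ENSMUSG00000017831, chr17:53479234-53507680, plus strand) and Rab5b (ENSMUSG00000000711, chr10:128677175-128696264, minus strand) encode closely related Rab5 proteins that direct vesicle tethering and fusion. Rab5a had 88.5, 112.1, 108.9 and 110.4 CPM in WT and 97.3, 112.3, 102.1 and 100.5 CPM in Dp1Tyb libraries 1 to 4. Its log2 fold change of -0.03 (SE 0.10, edgeR, adjusted p = 0.999) was the lowest of the 10, and WT library 1 stood below the other 3 WT libraries. Rab5b had 99.1, 85.5, 95.8 and 88.7 CPM in WT and 109.4, 85.2, 94.0 and 91.4 CPM in Dp1Tyb libraries 1 to 4, with overlapping groups and a log2 fold change of 0.04 (SE 0.10, edgeR, adjusted p = 0.999). The ratio of Rab5a to Rab5b had a mean log2 value of 0.18 ± 0.25 in WT and 0.12 ± 0.23 in Dp1Tyb MEFs (SD, n = 4 each; two-sided exact permutation test, p = 0.743). By library number the ratio was -0.16 in WT and -0.17 in Dp1Tyb for number 1, 0.39 and 0.40 for number 2, 0.19 and 0.12 for number 3, and 0.31 and 0.14 for number 4, so that number 1 was the lowest and number 2 the highest of each group.

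Vps35 (ENSMUSG00000031696, chr8:85260392-85299802, minus strand) and Vps26a (ENSMUSG00000020078, chr10:62455235-62486805, minus strand) encode core subunits of the retromer. Vps35 had 264, 312, 313 and 325 CPM in WT and 305, 369.7, 304 and 303 CPM in Dp1Tyb libraries 1 to 4, so that Dp1Tyb library 2 stood above all others and the remaining Dp1Tyb libraries were within the WT range. Its log2 fold change was 0.08 (SE 0.11, edgeR, adjusted p = 0.999). Vps26a varied more, with 171, 149, 213 and 236 CPM in WT and 246, 181, 178 and 189 CPM in Dp1Tyb libraries 1 to 4, and a log2 fold change of 0.05 (SE 0.17, edgeR, adjusted p = 0.999). Both groups of Vps26a values spanned much the same range, from libraries with under 200 CPM to 1 or 2 above it. The ratio of Vps35 to Vps26a differed by 0.02 on the log2 scale between the genotypes (0.68 ± 0.27 for WT and 0.70 ± 0.30 for Dp1Tyb, SD, n = 4 each; two-sided exact permutation test, p = 0.943).

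The 8 genes outside the duplication had a median log2 fold change of 0.07 under relative scaling, beside 0.01 over all tested genes. Of these 8 genes 7 were higher and 1 lower in Dp1Tyb MEFs, beside 8430 higher and 8040 lower of all 16470. Under spike-in scaling all 8 were higher, beside 11598 of all 16470 tested genes. Their median was then 0.17, beside 0.11 over all tested genes and 0.64 over the duplicated region, with Rab5a at 0.08. None of the 8 had an unadjusted p under 0.05 in either scaling. With 95% intervals such as 0.90 to 1.25 for Synj2, 0.88 to 1.24 for Itsn2 and 0.96 to 1.26 for Dnm2, a fold change of 1.5 was outside the interval of each of these 8 genes under relative scaling, and inside it under spike-in scaling. With the mean of each genotype removed, the deviations of the 8 libraries in the 45 pairs of the 10 genes had a median Pearson r of -0.01 under relative scaling, with a range from -0.88 to 0.93. Under spike-in scaling the median within genotypes was 0.92, and there each library contributes its RNA per spike-in to all genes.

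**Figure D4:**
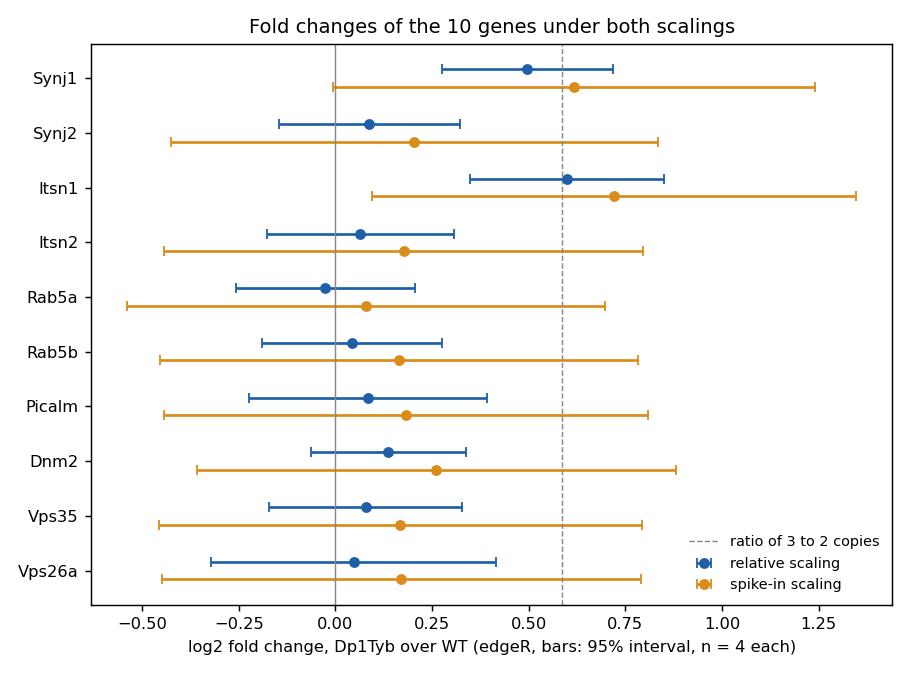
Log2 fold change (Dp1Tyb over WT, n = 4 each) of the 10 genes under relative scaling (blue) and spike-in scaling (orange), with 95% intervals from edgeR as bars. The dashed line marks the ratio of 3 to 2 copies. Under relative scaling the intervals of Synj1 (0.50) and Itsn1 (0.60) exclude 0, and those of the other 8 genes include 0 and lie below the dashed line.

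Levels of different genes were compared as RPKM, that is, per length of annotated exon and per endogenous library total, over all 8 libraries. The order by median was Vps26a (65.2 RPKM), Vps35 (34.4), Picalm (29.1), Dnm2 (23.1), Rab5b (21.8), Rab5a (19.7), Itsn1 (10.3), Synj1 (7.62), Itsn2 (6.20) and Synj2 (4.92). Retromer, coat, fission and Rab5 genes were thus above both synaptojanins and both intersectins, and within each pair the duplicated gene was above its paralogue. Vps26a did not overlap Vps35, nor Vps35 Picalm, nor Rab5a Itsn1, nor Itsn2 Synj2, whereas the ranges of all other neighbours in the order overlapped. In WT MEFs alone Synj1 was at 6.76 ± 0.54 RPKM and Synj2 at 4.80 ± 0.59 RPKM, and Itsn1 at 8.60 ± 1.07 RPKM and Itsn2 at 6.29 ± 0.51 RPKM (SD, n = 4 each). The RPKM of Itsn1 was computed over 23425 bp of exon sequence, the union of all its transcripts, and is lower than it would be over 1 transcript.

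The tested genes whose log2 CPM under relative scaling was most like that of Synj1 over the 8 libraries, among 11000 genes averaging 100 counts or more, were Urb1 (Pearson r = 0.97), Usp25 (0.97) and Acp6 (0.97). Those most like Itsn1 were Urb1 (0.97), Synj1 (0.97) and Acp6 (0.97). Urb1 and Usp25, a deubiquitinating enzyme, lie in the duplicated region, with log2 fold changes of 0.82 and 0.69, while Acp6, a lysophosphatidic acid phosphatase, lies on chromosome 3 and stood at 0.30. The 8 points fall into the 2 genotypes and share their libraries, so these correlations are a description of a gap between genotypes together with the order within them.

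To place the 10 genes among the rest of the pathway, 82 other genes of endocytosis and early endosomes were listed, none of them in the duplicated region, of which 80 were tested. Fcho1 was not analysed here, and Sh3gl2, with at most 9 counts in a library, was not tested. Of the 80 genes, edgeR and DESeq2 each called 0 at an adjusted p under 0.05 under relative scaling. In edgeR 1 gene had an unadjusted p under 0.05, a share of 1.25% beside 4.27% of all genes. By sign 50 were higher and 30 lower in Dp1Tyb MEFs, beside 8430 higher and 8040 lower of all 16470 genes. The median log2 fold change was 0.04 beside 0.01 over all genes. Under spike-in scaling 67 were higher, beside 11598 of all 16470 genes, with a median of 0.16 beside 0.11. The one gene was Snx3, a sorting nexin that works with the retromer, with 101.9, 110.8, 133.7 and 132.3 CPM in WT and 154.9, 144.2, 135.5 and 140.04 CPM in Dp1Tyb libraries 1 to 4. All Dp1Tyb values were above all WT values, the closest by little, and the fold change was 1.20 (edgeR, adjusted p = 0.999).

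Every Dp1Tyb library was above every WT library for 3 of the 80 genes, 3.75% beside 1.64% of all genes, and the reverse held for 0 of the 80, beside 251 of all 16470 genes. Besides Snx3 these were Ap2s1, the small subunit of the AP2 adaptor, at 44.1 ± 0.81 CPM in WT and 50.3 ± 4.22 CPM in Dp1Tyb, and Rabep2, an effector of Rab5, at 13.8 ± 0.90 CPM in WT and 16.1 ± 0.80 CPM in Dp1Tyb MEFs (SD, n = 4 each). Their fold changes were 1.14 and 1.17. These 2 genes, and the further examples below, were picked out after their values were seen.

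The genes were also counted by role, under relative scaling unless stated, to be read beside the counts over all genes given above. All 8 genes of the clathrin coat and AP2 were higher by sign, with a median log2 fold change of 0.14 and 0 with an unadjusted p under 0.05, from Ap2b1 at 0.01 to the clathrin light chain Clta at 0.21, and with the heavy chain Cltc at 0.06. Of 11 coat adaptors and early coat proteins 6 were higher and 5 lower (8 higher under spike-in scaling). Of 11 fission and membrane-bending proteins 5 were higher and 6 lower (9 higher under spike-in scaling), among them Dnm1 at -0.11 and Dnm3 at -0.08, the other dynamins. In the uncoating group Hspa8, the chaperone that strips clathrin, was at 0.23, Gak at 0.00 and Dnajc6, with 0.65 ± 0.27 CPM in WT and 0.49 ± 0.06 CPM in Dp1Tyb MEFs (SD, n = 4 each), at -0.43. Of 9 phosphoinositide enzymes 4 were higher and 5 lower (6 higher under spike-in scaling), and the inositol phosphatases Ocrl and Inpp5b, which act on the same lipid as synaptojanins, were at 0.10 and 0.12. None of the genes in these groups had an unadjusted p under 0.05.

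Among Rab5 and its exchange factors and effectors 9 of 13 genes were higher by sign (11 under spike-in scaling), with a median of 0.04, and Rab5c, the remaining Rab5 gene, was at 0.12 (SE 0.10) and Eea1, the tether of early endosomes, at 0.01 (SE 0.10). Of the 13 genes of the retromer, sorting nexins and WASH complex 9 were higher (13 under spike-in scaling), with a median of 0.07, and Vps26b and Vps29, the other core retromer subunits, were at 0.08 (SE 0.09) and 0.07 (SE 0.10). The actin partners of intersectins, Cdc42 and Wasl, were at 0.14 and 0.02. Of the 5 other endosomal Rabs 4 were higher, with a median of 0.08. Cargo receptors were higher in 2 and lower in 3 of 5 cases (4 higher under spike-in scaling), with the transferrin receptor Tfrc at 0.17 (SE 0.20). In these groups Snx3 alone had an unadjusted p under 0.05.

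**Figure D5:**
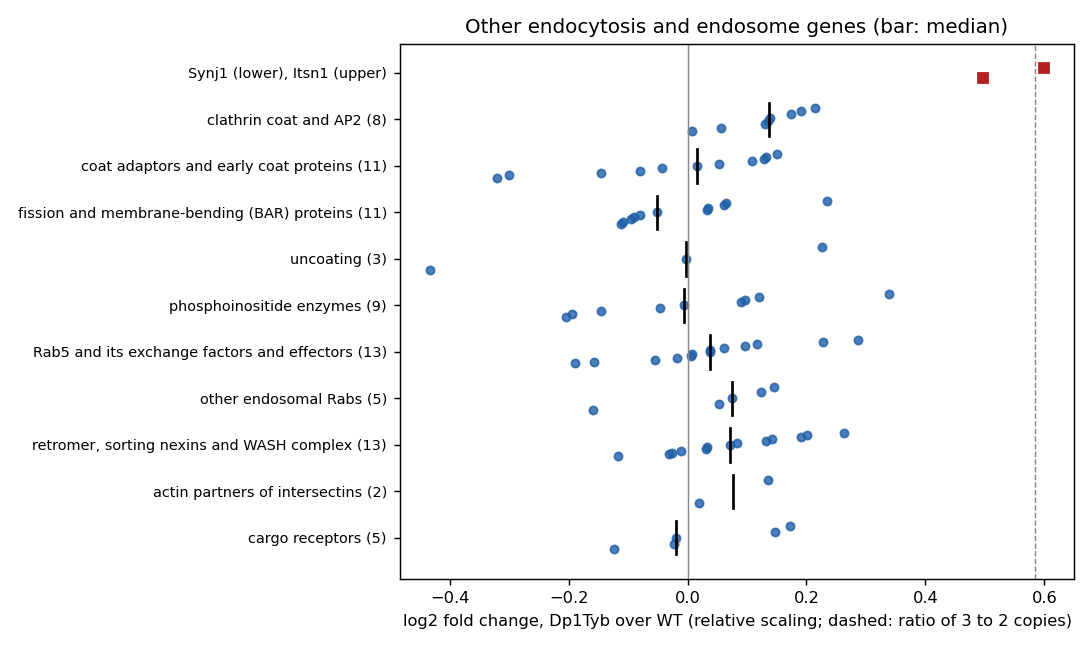
Log2 fold change (Dp1Tyb over WT, relative scaling, n = 4 each) of 80 other endocytosis and endosome genes, 1 point a gene, by role with the number tested in parentheses, and Synj1 and Itsn1 as red squares. Black bars are medians and the dashed line marks the ratio of 3 to 2 copies. The listed genes lie between -0.43 and 0.34, below Synj1 (0.50) and Itsn1 (0.60).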

How the data were processed

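The authors trimmed adapters with Trim Galore, mapped 100-base read pairs to GRCm38 with TopHat2 2.0.12, discarded reads with several alignments and counted reads per gene with htseq-count, so the deposited values analysed here are raw counts per Ensembl gene and per ERCC spike-in, 63 of them. The strand option and annotation release are not given in the sources used here. The deposited table of normalised counts and the authors' DESeq2 1.6.3 table of fold changes and p-values were not used.

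Of 19493 endogenous IDs, 19318 matched GENCODE M21, which gave symbols, coordinates and exon lengths. Genes with low counts were removed with filterByExpr, leaving 16470 genes with 99.9% of the counts. Genotypes were compared in R 4.3.3 with edgeR 4.0.16 (quasi-likelihood test), with Benjamini-Hochberg adjustment over all tested genes and a threshold of 0.05, after spike-in scaling (median of ratios over the ERCC RNAs) or relative scaling (TMM over endogenous genes). SE, intervals and p-values come from these fits, and CPM values are counts over the scaled library size. The test against 1.5 used the same fit with an offset. Ratios (pseudocount 0.5) were compared by exact permutation of the 70 assignments of libraries. The fits were also run on simulated data with known changes, where only the recovery of median fold changes was required. The simulated spread was smaller than in these libraries, so the p-values and calls given here were not assessed by it. Alternatives were DESeq2 1.42.0, other size factors, no filter, pseudocount 5, replicate number as a block, and each library left out.

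Named were all 10 members, 3 tested neighbours on each side of Synj1 and Itsn1, the 3 genes most correlated with each, and list genes that were called or, at an unadjusted p under 0.05, did not overlap between genotypes. Only Snx3 met the last part, and the other list genes named were examples chosen after their values were seen. The members, lists and tests were chosen with earlier results of these data known. Replicate numbers were not used to pair libraries.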

Additional observations from a re-analysis of the deposited data

Results flagged for a closer look

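In the values of the 10 genes 2 libraries stood apart from the rest of their group, in that the gap to the nearest library took up more of the group's whole range than Dixon's test allows for 4 samples. Rab5a in WT library 1 had a relative log2 CPM of 6.48, where the other WT libraries had 6.77 to 6.81, and the gap was 0.878 of the range. Vps35 in Dp1Tyb library 2 had a relative log2 CPM of 8.53, where the others had 8.25, and the gap was 0.975 of the range. Altogether 52 sets of 4 values were examined in this way, and chance flags about 1 in 20. Without these libraries the log2 fold change under relative scaling was -0.10 for Rab5a, against -0.03 with all libraries, and 0.0017 for Vps35, against 0.08.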

How the results depend on the processing

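Across all alternatives Synj1 and Itsn1 stayed higher in Dp1Tyb MEFs in both scalings. With each library left out in turn the log2 fold change under relative scaling was 0.45 to 0.55 for Synj1 and 0.53 to 0.66 for Itsn1, and the unadjusted p was under 0.05 in 8 of 8 fits, against 3 of 8 for each under spike-in scaling. DESeq2 called 2 of the 10 genes under relative scaling (Synj1 at 0.51 and Itsn1 at 0.61), where edgeR called 0, and 54 genes in all where edgeR called 3. Replicate numbers were not taken to pair the libraries, since no label says what they mark and not every pair correlated: deviations of same-numbered libraries had r = 0.375, 0.605, -0.03 and 0.393, and each library numbered 1, 2 or 4 correlated best with its own number, but those numbered 3 did not. The replicate block gave 7 calls over all genes under relative and 9 under spike-in scaling (2 without the block), adjusted p of 0.110 for Synj1 and 0.0603 for Itsn1 under relative and 1.00 and 0.657 under spike-in scaling, and 3 list genes at an unadjusted p under 0.05 under relative scaling. With the replicate block the log2 ratio differences of Synj1 to Synj2 (0.40) and of Itsn1 to Itsn2 (0.54) had an exact sign-flip p of 0.125. The difference of Synj1 to Itsn1 (-0.10) had the same p, which is the smallest that sign flips allow. Leaving out single libraries gave 2 to 8 calls under spike-in scaling (8 without Dp1Tyb replicate 2, 6 without WT replicate 1 or Dp1Tyb replicate 4, 4 without Dp1Tyb replicate 1), and 1 call under relative scaling for each library. The ratio differences of Synj1 to Synj2 and of Itsn1 to Itsn2 were then 0.32 to 0.48 and 0.48 to 0.59. Each had the smallest exact permutation p possible, 0.0571. Values near 0 changed sign when single libraries were left out: the ratio of Rab5a to Rab5b (-0.175 to 0.0367), that of Vps35 to Vps26a (-0.0929 to 0.15), the departure of Itsn1 from 1.5 (-0.0539 to 0.0776), and the log2 fold changes of Picalm (-0.00785 to 0.16), Rab5a (-0.0956 to 0.0168), Vps26a (-0.0723 to 0.16), Itsn2 (-0.0248 to 0.11) and Rab5b (-0.0326 to 0.091) under relative scaling and of Rab5a (-0.0344 to 0.22) and Vps26a (-0.0175 to 0.40) under spike-in scaling. Under spike-in scaling the departure from 1.5 was 0.033 for Synj1 and 0.136 for Itsn1 (95% interval -0.49 to 0.76). List genes at an unadjusted p under 0.05 numbered 0 under spike-in scaling and 0 to 4 with single libraries left out (4 without WT replicate 2, 2 without WT replicate 4, 0 without WT replicate 1 or Dp1Tyb replicate 1, 2 or 4). The cause of these shifts was not tested.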

Other observations

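Several families of the endocytic machinery hold 1 member known mainly from neurons and another used in most cells, and their levels in these MEFs can be set side by side as median RPKM over the 8 libraries. This set was chosen after the values were seen and is given as a description. Of the clathrin assembly proteins, Picalm was at 29.1 RPKM and its neuronal relative Snap91 at 0.25 RPKM. Of the amphiphysins, Bin1 was at 22.0 RPKM and Amph at 0.39 RPKM. Of the auxilins, Gak was at 21.4 RPKM and Dnajc6 at 0.083 RPKM. The endophilin Sh3gl1 was at 11.9 RPKM, and the neuronal Sh3gl2 had at most 9 counts in a library. Of the dynamins, Dnm2 was at 23.1 RPKM, Dnm1, known as the neuronal dynamin, at 16.0 RPKM and Dnm3 at 0.88 RPKM. Dnm1 varied between libraries, with 88.0 ± 23.5 CPM in WT and 81.6 ± 12.2 CPM in Dp1Tyb MEFs (SD, n = 4 each). The neuronal markers with a row among the counts, 3 of 6, had a summed level of 0.71 to 1.11 RPKM in WT and 0.63 to 1.40 RPKM in Dp1Tyb libraries, and Snap25 was at 0 in at least 1 library. Synj1, likewise best known from synapses, was at 7.62 RPKM, above Synj2 at 4.92 RPKM. The Synj1 median includes the Dp1Tyb libraries, which carry an extra copy. In WT MEFs alone the means were 6.76 ± 0.54 RPKM for Synj1 and 4.80 ± 0.59 RPKM for Synj2 (SD, n = 4 each).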
